A study of Mus musculus with 2 samples.

Results

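Regulatory T cells were described through 9 genes: Foxp3, Ikzf2, Lrrc32, Areg, Il1rl1, Klrg1, Penk, Capg and Izumo1r. These 9 rows of a deposited matrix of 15121 genes and 17390 cells were chosen by name. The rule held no measured value, but the genes were chosen with earlier results of these data known. All 9 had transcripts in both libraries. The cells are single-cell transcriptomes labelled as T cells on day 5 from an Nras-mutated syngeneic mouse melanoma model, called NILER in the labels. That model comes from the Nras Q61R melanoma line NIL after exposure to ultraviolet light. One group was untreated and the other received trametinib, an inhibitor of MEK, together with BGB-283, an inhibitor of RAF. The labels name neither the animals nor how the T cells were obtained, and no further allele or agent.

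Each group was 1 droplet library of a 3' kit, so there was no spread between animals, no test and no p-value, and treatment and batch cannot be told apart. Values are given with exact 95% intervals, which cover counting error only. A cell was taken as a T cell when it held a unique molecular identifier (UMI) of Cd3e, Cd3d, Cd3g or Trac. T cells with a Foxp3 UMI are called Foxp3-positive. T cells without one are called Foxp3=0 CD4 when they held Cd4 and no Cd8a or Cd8b1 UMI, and Foxp3=0 CD8 when they held a Cd8a or Cd8b1 and no Cd4 UMI. Levels are the UMIs of a gene summed over a class, scaled by all UMIs of that class (CPM).

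Regulatory T cells hold back other lymphocytes, and the X-linked transcription factor Foxp3 defines the lineage and maintains its program. Many depend on interleukin-2 taken up through a receptor whose alpha chain is encoded by Il2ra. Those in tissues and tumours often carry an effector program, with the interleukin-33 receptor, the inhibitory receptor Klrg1 and the epidermal growth factor family ligand amphiregulin. Several of these genes are also used by other lymphocytes: Ikzf2 by subsets of CD8 T cells, and Il1rl1 and Areg by type 2 helper T cells and innate lymphoid cells. A gene of the regulatory program outside Foxp3-positive cells is therefore not by itself a sign of a regulatory T cell.

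The untreated library held 9312 cells and 95349992 UMIs, the treated library 8078 cells and 58318786 UMIs, with medians of 6155 and 5987.5 UMIs per cell. After filtering, 8671 and 7355 cells were left, of which 7998 and 6815 were T cells. The libraries shared 35 cell barcodes, and 4 untreated and 2 treated Foxp3-positive cells carried one. Markers of macrophages moved with the library. Their summed level in Foxp3-positive cells was 4118 CPM untreated and 921 CPM treated, with all 7 markers present in both, and 24.5% and 8.18% of those cells held at least 2 of the 7. Foxp3=0 CD4 cells held them at 3976 and 850 CPM. Erythroid markers stood at 1014 and 0.782 CPM in Foxp3=0 CD4 cells, with at least 2 of the 3 in 0.102% of untreated cells. Their part in the results was not tested, and counts are given with and without cells that hold markers of other types where these change them.

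Promoter stretches were read for the genes on which the results turn most, from RefSeq on GRCm38.p6, matched by symbol. Of the 9 genes 5 matched (Foxp3, Areg, Il1rl1, Capg and Izumo1r), with 7 annotated starts, and none was found in that table for Ikzf2, Lrrc32, Klrg1 and Penk. Each stretch runs 5′ to 3′ on the gene's strand from 250 bases before to 50 bases after a start. Il1rl1 is shown at both starts and Areg beside it, because these 2 genes were often detected in the same cells. Foxp3 is shown, at its upstream start only, because it set the classes. Capitals mark matches, on either strand, to the motifs searched. The GATA motif was taken as the letters AGATAA and TGATAA, and as the same letters ending on guanine: AGATAG, or with T first, TGATAG. The core of the cAMP response element was taken as TGACG, and the TATA box as the letters TATAAA. An AP-1 site was taken as TGANTCA, and an ETS site as the letters CCGGAA. Overlapping matches join into 1 run of capitals.
Il1rl1, upstream start, chr1:40429320-40429619, plus strand: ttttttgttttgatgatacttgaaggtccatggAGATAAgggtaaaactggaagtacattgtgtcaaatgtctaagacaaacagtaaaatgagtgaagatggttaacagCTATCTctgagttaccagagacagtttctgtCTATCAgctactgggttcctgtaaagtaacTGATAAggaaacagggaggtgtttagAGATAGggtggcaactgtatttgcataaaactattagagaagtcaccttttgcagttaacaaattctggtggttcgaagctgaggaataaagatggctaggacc
Il1rl1, downstream start, chr1:40439379-40439678, plus strand: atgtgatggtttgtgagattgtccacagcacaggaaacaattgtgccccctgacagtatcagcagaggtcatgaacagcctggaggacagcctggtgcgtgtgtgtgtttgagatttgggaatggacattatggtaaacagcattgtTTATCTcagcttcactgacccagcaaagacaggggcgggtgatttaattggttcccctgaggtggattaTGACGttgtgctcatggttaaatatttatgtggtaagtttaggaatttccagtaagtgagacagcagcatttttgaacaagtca
Areg, chr5:91139349-91139648, plus strand: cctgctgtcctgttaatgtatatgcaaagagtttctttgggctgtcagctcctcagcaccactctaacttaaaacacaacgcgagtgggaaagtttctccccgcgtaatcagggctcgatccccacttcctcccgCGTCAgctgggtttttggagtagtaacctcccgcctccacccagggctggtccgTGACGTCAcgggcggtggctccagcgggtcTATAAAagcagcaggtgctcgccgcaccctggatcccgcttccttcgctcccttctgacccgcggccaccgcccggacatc
Foxp3, chrX:7579426-7579725, plus strand: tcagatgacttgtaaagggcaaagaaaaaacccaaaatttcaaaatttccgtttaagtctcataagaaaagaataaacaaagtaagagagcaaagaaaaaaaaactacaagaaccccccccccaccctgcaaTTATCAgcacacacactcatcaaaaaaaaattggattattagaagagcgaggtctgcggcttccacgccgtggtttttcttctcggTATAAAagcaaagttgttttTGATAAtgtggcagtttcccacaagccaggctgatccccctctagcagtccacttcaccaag
The upstream Il1rl1 stretch held 5 GATA matches and the downstream stretch 1. GATA letters were present in 29.8% of all 32851 stretches of the table. The Areg stretch held 3 cores of the cAMP response element, at bases -115, -61 and -58 from the start, and the Foxp3 stretch held 2 GATA matches. That core was present in 20.8% of all stretches, the downstream Il1rl1 stretch among them. A TATA box, present in 13.6% of all stretches, lay at base -31 of Areg and base -32 of the Foxp3 stretch shown. The downstream Foxp3 stretch, from chrX:7580233, is not shown and held 1 GATA match and no TATA box. None of the 4 stretches shown held the AP-1 or the ETS letters, which were in 7.81% and 14.9% of all stretches. These matches describe the letters of the reference and no binding was measured.

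Foxp3 was detected in 785 of 7998 untreated T cells (9.81%, interval 9.17 to 10.5) and in 538 of 6815 treated T cells (7.89%, interval 7.26 to 8.56). Among T cells with Cd4 and no Cd8 UMIs the order was the other way round: 25.8% untreated (23.5 to 28.3) and 38.8% treated (35.5 to 42.3), at median depths of 4630 and 4987 UMIs. Among T cells with Cd8 and no Cd4 UMIs the shares were 1.65% and 0.641%. Macrophage-like cells without T cell UMIs, which should lack the gene, gave 0 of 175 and 0 of 129 cells, which allows shares of up to 2.09% and 2.82%. Their median depths were 10978 and 8302 UMIs. Over all cells without a T cell UMI the counts were 1 of 673 (0.149%, upper bound 0.825%) and 2 of 540 (0.370%, upper bound 1.33%). The untreated share in CD8 cells (1.30 to 2.06%) was above that bound and below the limit from macrophage-like cells, and the treated share (0.439 to 0.904%) was below both.

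The Foxp3-positive cells were mixed in their coreceptors. Cd4 without Cd8 UMIs was found in 43.7% of them untreated and 58.7% treated, neither coreceptor in 26.9% and 22.7%, Cd8 without Cd4 in 9.81% and 5.95%, and both in 19.6% and 12.6%. Untreated Foxp3-positive cells with both coreceptors had a median of 19084.5 UMIs, against 6684 for those with Cd4 alone, and the treated medians were 11190 and 6331. Whether such cells were pairs in 1 droplet was not tested beyond the removal of the highest doublet scores. The median was 2 Foxp3 UMIs per positive cell and the highest 14 in each library. A cell with 1 Foxp3 UMI, as were 36.6% and 34.4%, can lose it at a lower depth: thinned to 2000 UMIs, only 48.8% and 57.5% of the Foxp3-positive cells still showed Foxp3. The Foxp3=0 classes can therefore hold cells whose Foxp3 transcripts were missed.

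Other markers of regulatory T cells separated the classes too. Il2ra was at 138 CPM in untreated Foxp3-positive cells and at 32.4 CPM in untreated Foxp3=0 CD4 cells, and at 520 and 113 CPM in the treated library. Ctla4, an inhibitory receptor that regulatory T cells carry constitutively, was at 821 against 202 CPM untreated and at 1156 against 313 CPM treated. Of the 8 genes other than Foxp3, 6 were at least 1.5-fold higher in Foxp3-positive than in Foxp3=0 CD4 cells with an interval that excludes 1, and they were the same 6 in each library, and 0 were lower. Over all genes measured, 12.0% untreated and 17.3% treated were higher by that rule, and 4.63% and 8.92% lower. The 6 were Ikzf2, Lrrc32, Klrg1, Penk, Capg and Izumo1r, while Areg and Il1rl1 did not pass in either library. Penk was just past the limit, at 1.51-fold untreated (1.37 to 1.66) and 1.62-fold treated (1.42 to 1.87). The count stayed at 6 in both libraries without cells with markers of other types, and was 5 untreated and 6 treated without the shared barcodes.

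**Figure D1:**
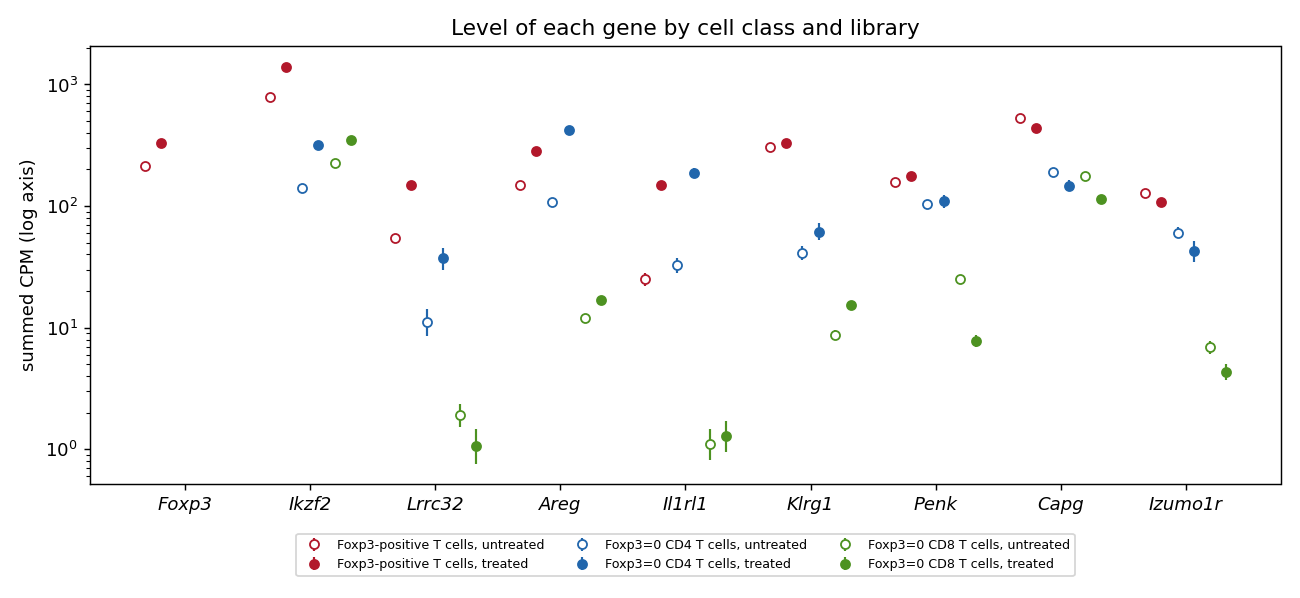
Summed level in CPM, on a log axis, of each gene in Foxp3-positive, Foxp3=0 CD4 and Foxp3=0 CD8 T cells of the untreated (open) and treated (filled) library; bars are exact 95% Poisson intervals for counting error and Foxp3 is 0 by definition in the Foxp3=0 classes. Il1rl1 lies slightly lower in Foxp3-positive than in Foxp3=0 CD4 cells of each library and is at 1.11 and 1.29 CPM in CD8 cells, and Areg lies higher in Foxp3-positive cells untreated and lower treated.

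Between libraries, 5 of the 9 genes were at least 1.5-fold higher in treated than in untreated Foxp3-positive cells with an interval that excludes 1, and 0 were lower. The 5 were Foxp3, Ikzf2, Lrrc32, Areg and Il1rl1. The same rule called 16.1% of 6032 genes higher and 11.5% lower. Foxp3 UMIs define the class, so its own ratio says nothing independent of that choice: of the other 8 genes, 4 were higher. The count depended on how cells were weighed. Without cells that held 2 or more markers of macrophages, dendritic cells, B cells or neutrophils, 2 genes were higher (Lrrc32 and Il1rl1) and 1 was lower (Izumo1r). With each cell given equal weight the counts were again 2 and 1, with the same genes. Lrrc32 and Il1rl1 were therefore higher by the rule in both of these settings, and Foxp3, Ikzf2 and Areg were not, although their values stayed above those of the untreated library. Counts without the shared barcodes were 5 and 0.

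**Figure D2:**
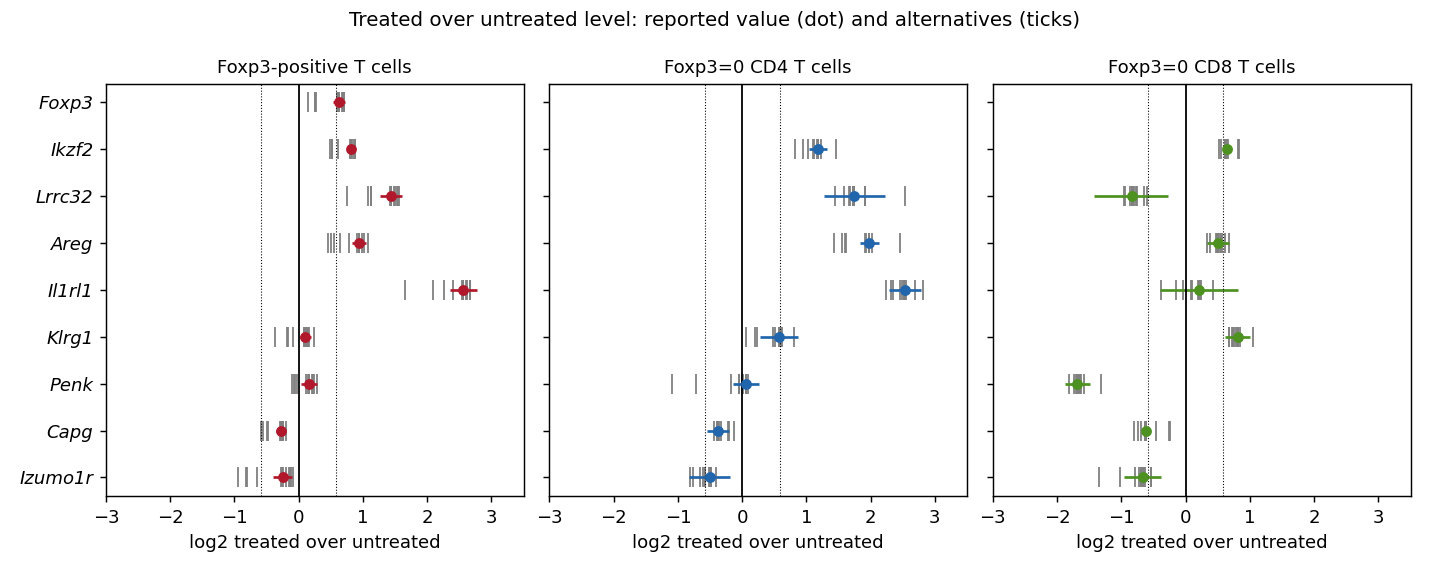
Log2 of the treated over the untreated level of each gene in the 3 classes: dots with bars are the reported values with 95% counting intervals, grey ticks the same value under each alternative setting, dotted lines 1.5-fold either way. In Foxp3-positive cells Il1rl1 and Lrrc32 lie right of the 1.5-fold line under every alternative drawn, whereas Foxp3, Ikzf2 and Areg have ticks left of it.

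Foxp3 itself, the lineage factor, was at 216 CPM (interval 207 to 225) in untreated and 333 CPM (317 to 350) in treated Foxp3-positive cells, a ratio of 1.55 (1.45 to 1.65). Every cell of this class holds at least 1 Foxp3 UMI by definition, so its level depends on the depth of the cells in it. Among positive cells with Cd4 and no Cd8 UMIs the levels were 286 and 340 CPM, and the log2 ratio was 0.25 (0.12 to 0.38). In cells with Cd8 UMIs they were 129 and 252 CPM. The higher level in the treated library was thus smaller in the cells with Cd4 alone.

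Ikzf2 encodes Helios, a zinc finger factor of the Ikaros family that supports the stability of regulatory T cells. It was at 789 CPM (771 to 807) untreated and 1389 CPM (1356 to 1423) treated in Foxp3-positive cells, 1.76-fold higher (1.70 to 1.82). At equal depth of 2000 UMIs it was seen in 75.3% (72.1 to 78.3) and 88.6% (85.5 to 91.2) of them, the most widely detected of the 8 genes in both libraries. Among Foxp3=0 CD4 cells it was seen in 13.7% and 23.3%, and among Foxp3=0 CD8 cells in 23.1% and 41.8%. Cells without a T cell UMI gave 4.08% and 3.58%, below both Foxp3=0 classes. Single cells among them held up to 11 and 5 Ikzf2 UMIs, so they are not a clean background for Ikzf2.

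Lrrc32 encodes GARP, the surface protein that holds latent TGF-beta on regulatory T cells. Its level in Foxp3-positive cells was 54.6 CPM (50.1 to 59.4) untreated and 148 CPM (137 to 159) treated, 2.71-fold higher (2.41 to 3.04). It was still past the rule without cells with markers of other types, at a log2 ratio of 1.13 (0.93 to 1.32), against 1.44 with them. At equal depth 14.3% (11.9 to 17.0) and 28.2% (24.4 to 32.3) of Foxp3-positive cells showed it, against 1.57% and 4.16% of Foxp3=0 CD4 cells and 0.331% and 0.226% of Foxp3=0 CD8 cells. The cells without T cell UMIs gave 0.163% and 0.477%, and the intervals of these shares overlapped those of CD8 cells. By level, CD8 cells held 1.90 CPM untreated (1.52 to 2.36), above the 0.272 CPM (0.056 to 0.794) of cells without T cell UMIs, and 1.07 CPM treated (0.760 to 1.46), against 1.41 CPM (0.567 to 2.91). Of all T cells with a Lrrc32 UMI, 66.7% untreated and 72.7% treated were Foxp3-positive, a larger share than for any other of the 8 genes in either library.

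Il1rl1 encodes ST2, the receptor chain for interleukin-33. It showed the largest ratio of the 9 genes in Foxp3-positive cells, from 25.1 CPM (22.1 to 28.4) untreated to 148 CPM (137 to 160) treated, 5.90-fold (5.10 to 6.86). In Foxp3=0 CD4 cells it was at 32.5 CPM (28.0 to 37.5) and 189 CPM (172 to 206), a ratio of 5.80 (4.89 to 6.90), so both classes showed a like ratio. Foxp3-positive cells were lower than Foxp3=0 CD4 cells in each library, at 0.772 of their level untreated (0.636 to 0.939) and 0.786 treated (0.699 to 0.885). At equal depth it was seen in 5.71% and 19.8% of Foxp3-positive cells and in 5.54% and 18.3% of Foxp3=0 CD4 cells. In Foxp3=0 CD8 cells 0.133% and 0.144% showed it. Cells without T cell UMIs showed it in 0.489% and 1.43%, but single cells among them held up to 7 and 10 UMIs, so they give no background for Il1rl1.

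Areg encodes amphiregulin, which acts on epithelial and stromal cells in tissue repair. In Foxp3-positive cells its level was 150 CPM (142 to 158) untreated and 286 CPM (271 to 302) treated, 1.91-fold higher (1.77 to 2.06). Its log2 ratio of 0.93 came to 0.51 (0.39 to 0.63) without cells with markers of other types. Foxp3=0 CD4 cells had it at 107 CPM (98.8 to 116) and 423 CPM (398 to 449), 3.95-fold higher (3.57 to 4.37). That treated level lay largely in few cells: 5 cells held 50.3% of the Areg UMIs of the class, and 1 of them held 226. By detection at equal depth, to which such a cell adds only 1, Areg was seen in 7.22% and 12.7% of Foxp3=0 CD4 cells and in 18.7% and 26.3% of Foxp3-positive cells. The order of the 2 classes in the treated library was therefore opposite by level and by detection. Foxp3=0 CD8 cells showed Areg in 0.773% and 0.985%, where 1 cell held 67 untreated and 51 treated UMIs. Cells without T cell UMIs showed it in 1.47% and 1.91%, but 1 of them held 110 UMIs, so they give no background for Areg.

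The interleukin-33 receptor and amphiregulin went together cell by cell. In Foxp3-positive cells at equal depth, 2.47% untreated held UMIs of both, which is 2.31 times the product of their separate shares, and 8.57% treated, which is 1.65 times. Among Foxp3=0 CD4 cells the figures were 1.36% and 6.03%, or 3.40 and 2.60 times the product. Foxp3=0 CD4 cells with an Il1rl1 UMI, 105 and 123 cells, had Areg at 284 and 1097 CPM, against 77.1 and 182 CPM in those without. They also had Gata3, the master factor of type 2 helper cells, at 378 and 370 CPM against 112 and 122 CPM. The type 2 cytokine gene Il13 was at 152 and 69.7 CPM in them against 43.5 and 15.9 CPM, and Hdc, the enzyme that makes histamine, at 152 and 252 CPM against 12.2 and 22.8 CPM. In Foxp3-positive cells with an Il1rl1 UMI, Il13 was at 6.55 and 0.838 CPM and Gata3 at 170 and 232 CPM. Il13 was thus high with Il1rl1 outside the Foxp3-positive class and low within it. Of 5 measured markers of mast cells or basophils, Hdc gave nearly all UMIs of Foxp3=0 CD4 cells, 32.5 of 34.6 CPM untreated and all 83.3 CPM treated, and Cpa3, Mcpt8 and Fcer1a were at 0 in both libraries. All 7 markers of group 2 innate lymphoid cells, a list that shares Il1rl1, Areg and Gata3, had UMIs there, with summed levels of 705 and 1612 CPM. Rora alone gave 262 and 765 CPM of these. The list did not set this class apart: all 7 had UMIs in Foxp3-positive cells too, at 674 and 1283 CPM. At least 2 of the 7 were held by 64.1% and 68.4% of Foxp3-positive cells and by 29.4% and 48.8% of Foxp3=0 CD4 cells. The part of innate lymphoid cells, mast cells or basophils was not tested. Lrrc32 was at 10.8 and 19.3 CPM in the Foxp3=0 CD4 cells with an Il1rl1 UMI.

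Klrg1, an inhibitory lectin receptor of terminally differentiated lymphocytes, was at 307 CPM (296 to 318) untreated and 330 CPM (313 to 346) treated in Foxp3-positive cells, a ratio of 1.07 (1.01 to 1.14). The direction was not stable: in Foxp3-positive cells with Cd4 and no Cd8 UMIs the log2 ratio was -0.37 (-0.49 to -0.26), from 488 to 377 CPM. Klrg1 separated Foxp3-positive from Foxp3=0 CD4 cells most widely of the 8 genes, by 7.41-fold untreated (6.49 to 8.49) and 5.33-fold treated (4.53 to 6.32). Its detection at equal depth was 39.6% and 43.8% in Foxp3-positive cells, 5.23% and 5.41% in Foxp3=0 CD4 cells, and 1.02% and 2.22% in Foxp3=0 CD8 cells. Cells without T cell UMIs gave 0.489% and 0.955%, but single cells among them held up to 17 and 8 UMIs, so they give no background for Klrg1. In CD8 cells its level was 8.72 and 15.3 CPM, under the minimum of 20 CPM for a call.

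Penk encodes proenkephalin, the precursor of opioid peptides, which a subset of tissue regulatory T cells makes. It was at 158 CPM (150 to 166) untreated and 177 CPM (165 to 190) treated in Foxp3-positive cells, a ratio of 1.12 (1.03 to 1.22) that did not pass the rule. Its direction was not stable, with ratios of 0.933 to 1.22 under the alternative settings. At equal depth Penk was seen in 12.7% and 15.6% of Foxp3-positive cells, in 3.24% and 4.57% of Foxp3=0 CD4 cells and in 1.75% and 0.964% of Foxp3=0 CD8 cells. The level in Foxp3=0 CD4 cells, 105 and 109 CPM, rested on few cells: 10 untreated cells held 82.7% of the UMIs and 1 of them held 204, and 5 treated cells held 66.0%. Penk was detected with Areg 1.75 and 1.53 times as often, and with Klrg1 1.42 and 1.31 times as often, as the product of shares gives in Foxp3-positive cells. With Il1rl1 it was found in 1 untreated cell, 0.179 times the product, and in 13 treated cells, 0.800 times.

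Capg encodes an actin filament capping protein found in macrophages and in effector regulatory T cells. Its level in Foxp3-positive cells was 526 CPM (512 to 541) untreated and 436 CPM (417 to 455) treated, a ratio of 0.828 (0.786 to 0.872). That ratio was 0.663 to 0.870 under the alternative settings, with the low end past the 1.5-fold limit. Macrophage-like cells without T cell UMIs held Capg at 263 and 374 CPM, and the part of such cells in these levels was not tested. Capg was 2.77-fold (2.59 to 2.96) and 2.96-fold (2.65 to 3.32) higher in Foxp3-positive than in Foxp3=0 CD4 cells. At equal depth 61.9% and 53.3% of Foxp3-positive cells showed it, 19.1% and 17.9% of Foxp3=0 CD4 cells and 16.1% and 16.3% of Foxp3=0 CD8 cells. Cells without T cell UMIs gave 25.3% and 28.9%, above both Foxp3=0 classes, but these include the macrophage-like cells, 34.0% and 46.7% of which showed it, and so give no background for Capg.

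Izumo1r encodes folate receptor 4, a surface protein of natural regulatory and of anergic CD4 T cells. It was at 128 CPM (121 to 135) untreated and 108 CPM (98.4 to 117) treated in Foxp3-positive cells, a ratio of 0.841 (0.757 to 0.934). Among those with Cd4 and no Cd8 UMIs the levels were 189 and 108 CPM, giving a log2 ratio of -0.81 (-1.02 to -0.61), past the rule as lower. Its level was 60.4 and 42.6 CPM in Foxp3=0 CD4 cells and at 6.89 and 4.33 CPM in Foxp3=0 CD8 cells. Detection at equal depth was 24.9% and 18.3%, 9.83% and 7.69%, and 1.68% and 0.882% in those 3 classes, against 0 of 613 cells and 0.239% of cells without T cell UMIs.

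**Figure D3:**
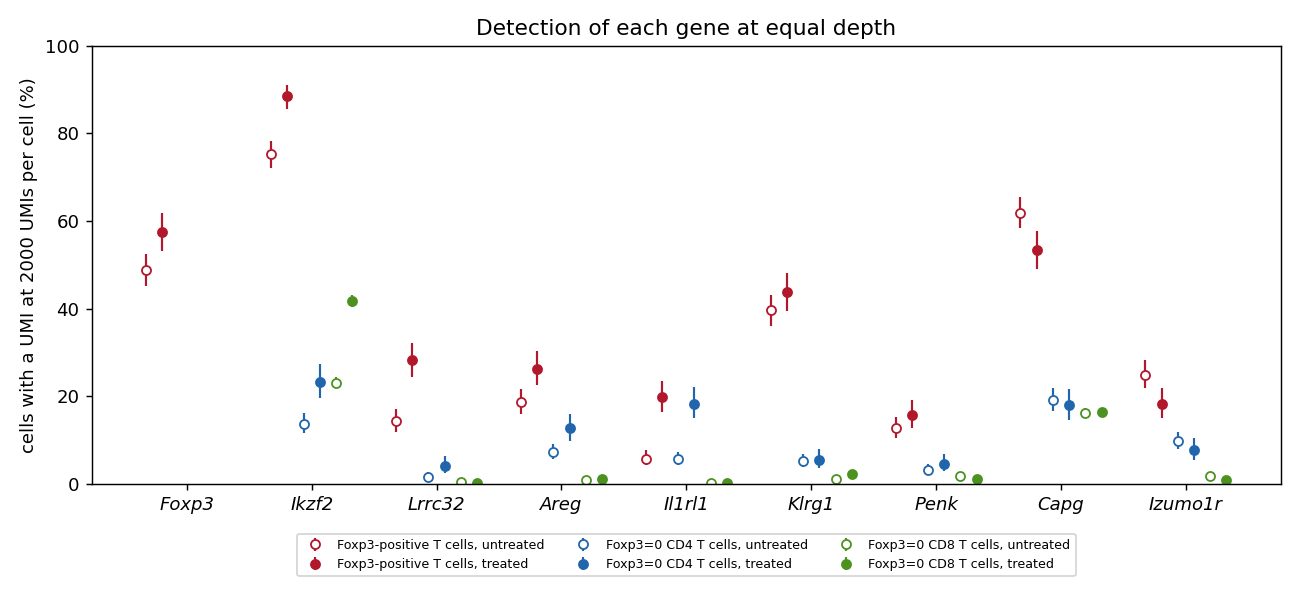
Share of cells, in percent, with a UMI of each gene after every cell was thinned to 2000 UMIs, by class (colours) and library (open untreated, filled treated), with exact 95% binomial intervals; Foxp3 is drawn in Foxp3-positive cells only. Each of the 8 other genes was seen in a larger share of Foxp3-positive than of Foxp3=0 CD8 cells, while Il1rl1 lies at 5.71% against 5.54% and 19.8% against 18.3% in Foxp3-positive and Foxp3=0 CD4 cells.

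In Foxp3=0 CD4 cells, 4 of the 8 genes were higher in the treated library and 0 lower, where the rule called 24.4% of genes higher and 19.7% lower. Without cells with markers of other types 5 were higher and 2 lower, with Penk at a log2 ratio of -1.09 and Izumo1r at -0.82, against 0.06 and -0.50 with them. In 4 further settings 1 was lower: a 5% mitochondrial filter, no doublet removal, equal weight for each cell, and thinning. The 4 higher genes were Ikzf2 (140 and 317 CPM), Lrrc32 (11.1 and 37.2 CPM), Areg and Il1rl1. Klrg1 at 41.4 and 61.8 CPM had a ratio of 1.49 (1.21 to 1.83), just inside the 1.5-fold limit. The genes were not spread evenly over these cells. Cells with an Ikzf2 UMI, 207 untreated and 164 treated, had Lrrc32 at 38.1 and 90.9 CPM against 2.09 and 3.80 CPM in cells without, and Klrg1 at 144 and 127 CPM against 6.97 and 21.6 CPM. They had Ctla4 at 505 and 633 CPM against 100.1 and 115 CPM. Of the Foxp3=0 CD4 cells with Lrrc32 at equal depth, 12 of 15 untreated and 17 of 20 treated also showed Ikzf2. Il1rl1, by contrast, was at 31.2 and 131 CPM in cells with an Ikzf2 UMI and at 33.0 and 224 CPM in cells without.

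**Figure D4:**
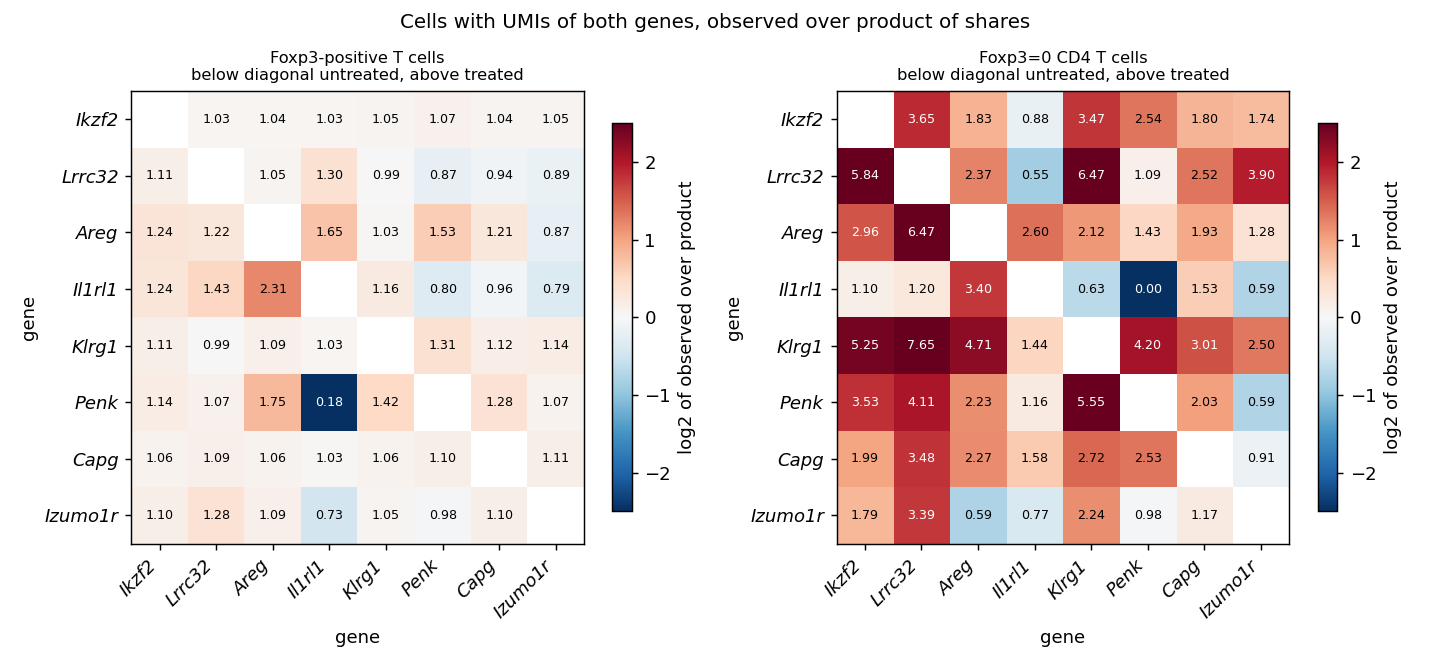
For each pair of the 8 genes, the number of cells with UMIs of both at 2000 UMIs per cell, divided by the number that the product of the 2 shares gives (printed value; colour is its log2), in Foxp3-positive cells (left) and Foxp3=0 CD4 cells (right); values below the diagonal are untreated and above it treated. Ikzf2, Lrrc32 and Klrg1 stand at 3.47 to 7.65 with each other in Foxp3=0 CD4 cells, whereas Ikzf2 with Il1rl1 is at 1.10 and 0.878. The pair of Lrrc32 and Klrg1 rests on 6 untreated and 7 treated cells.

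These ratios describe cells of 1 library each, which share their preparation and, after thinning, their depth. In Foxp3-positive cells most pairs lay near 1. Ikzf2 with the other 7 genes stood between 1.03 and 1.24, and a gene found in most cells leaves little room above 1. Pairs of less widely detected genes could also lie near 1, such as Lrrc32 with Klrg1 at 0.987 in each library. In Foxp3=0 CD4 cells Ikzf2 with Lrrc32 stood at 5.84 untreated and 3.65 treated, and Ikzf2 with Klrg1 at 5.25 and 3.47. Lrrc32 with Klrg1 stood at 7.65 and 6.47. Areg was also above 1 with Ikzf2, at 2.96 and 1.83, and with Lrrc32, at 6.47 and 2.37, the latter on 7 and 6 cells. Il1rl1 with Penk was found in 2 untreated and 0 treated cells of this class. How many of the cells with Ikzf2, Lrrc32 and Klrg1 had Foxp3 transcripts that were missed was not tested.

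In Foxp3=0 CD8 cells only 3 of the 9 genes reached 20 CPM. Ikzf2 was higher in the treated library, at 226 CPM (221 to 230) and 352 CPM (346 to 358), 1.56-fold (1.52 to 1.60), where 30.7% of all genes were called higher. Penk was lower, at 25.0 CPM (23.6 to 26.6) and 7.79 CPM (6.91 to 8.75), and so was Capg, at 176 CPM (172 to 180) and 115 CPM (111 to 118), where 15.8% of all genes were called lower. These calls depended on the setting: 0 genes were lower with each cell given equal weight and after thinning, 1 was lower without cells with markers of other types, and 0 were higher with a 5% mitochondrial filter. Capg had a ratio of 0.848 with each cell given equal weight. Of all T cells with an Ikzf2 UMI, 55.9% untreated and 76.0% treated were Foxp3=0 CD8 cells, and 22.0% and 11.5% were Foxp3-positive. Foxp3=0 CD8 cells made up 57.5% and 72.8% of all T cells, and Foxp3-positive cells 9.81% and 7.89%. The Ikzf2 shares in CD8 cells were thus close to those of the class itself.

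Counted together at equal depth, the 8 genes other than Foxp3 gave a median of 3 per Foxp3-positive cell in each library. At least 3 of them were seen in 50.9% of untreated and 61.0% of treated Foxp3-positive cells. The same was true of 6.07% and 10.4% of Foxp3=0 CD4 cells and of 1.02% and 0.390% of Foxp3=0 CD8 cells. Of the CD8 cells, 28.1% untreated and 44.9% treated showed exactly 1 of the 8. Exactly 2 were seen in 6.74% and 8.74%, and exactly 3 in 0.884% and 0.369%. When all UMIs were counted, 26.1% and 34.7% of CD8 cells showed at least 2. With all UMIs the median in Foxp3-positive cells was 4 and 5.

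**Figure D5:**
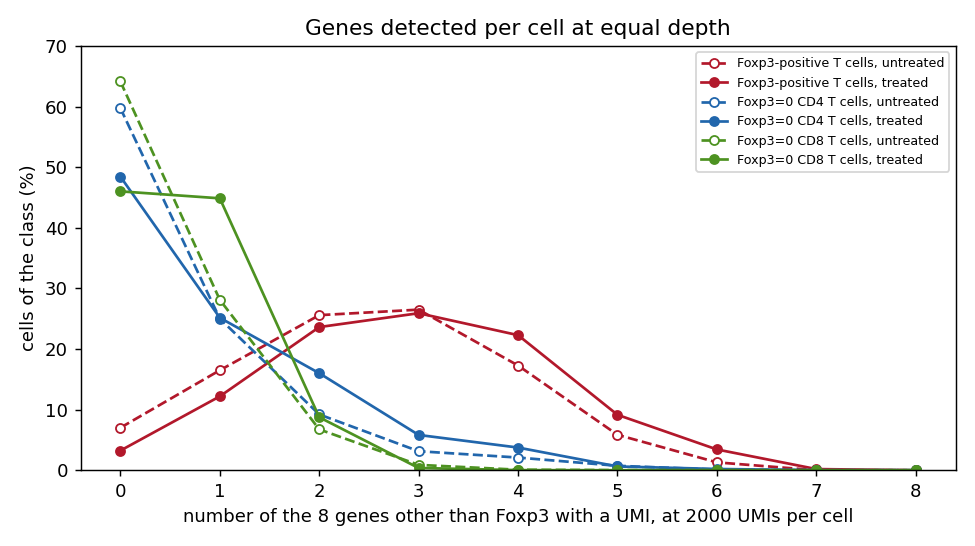
Percent of cells of each class (y) by the number of the 8 genes other than Foxp3 with a UMI at 2000 UMIs per cell (x), dashed for untreated and solid for treated. Foxp3-positive cells peak at 3 genes with 26.5% and 25.9% of cells, whereas both Foxp3=0 classes peak at 0 genes, with 59.7% and 48.4% of CD4 and 64.1% and 46.0% of CD8 cells.

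Around the 9 genes, other parts of the regulatory program were read in Foxp3-positive cells from 5 lists, by the same rule and against the same 16.1% and 11.5% of all genes. Values are for Foxp3-positive cells unless a Foxp3=0 class is named. The interleukin-2 and transcription factor lists were also mostly higher in both Foxp3=0 classes, as given below, so this was not particular to Foxp3-positive cells. Of 16 measured receptors and coreceptors, 5 were higher in the treated library and 0 lower, with a median log2 ratio of 0.25. Il2ra was 3.76-fold higher (3.51 to 4.02), and Itgb8, the integrin chain that releases active TGF-beta from GARP, went from 21.2 to 58.1 CPM. At the low end stood Il10ra, at 51.7 and 38.6 CPM, and Pdcd1, at 184 and 141 CPM, neither past the rule. Of 11 genes of interleukin-2 and STAT5 signalling, 7 were higher and 1 lower, median 0.85. Il2ra and Stat5b, at 48.8 and 107 CPM, led them. The survival gene Bcl2 was lower, at 64.9 and 15.0 CPM, and the common chain Il2rg was at 310 and 265 CPM.

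Of 18 transcription factors, 10 were higher and 2 lower, median 0.66. Irf4, which effector regulatory T cells need, went from 11.5 to 38.2 CPM and Ikzf4, the relative of Ikzf2 that encodes Eos, from 53.9 to 141 CPM. Tcf7, at 61.1 and 18.4 CPM, and Lef1, at 79.8 and 47.0 CPM, both factors of resting T cells, were lower. Gata3 was at 122 and 144 CPM. Among 8 suppressor effectors 2 were higher and 3 lower, median -0.08: Ebi3, a chain of interleukin-35, was at 50.8 and 91.4 CPM and Nt5e, the ectoenzyme CD73, at 25.8 and 41.6 CPM. The cytotoxic protease Gzmb was lower, at 597 and 291 CPM, as was the inhibitory receptor Lag3, at 87.0 and 47.8 CPM. Of 11 helper cytokine genes 1 was measured, Ifng, at 99.4 and 10.7 CPM. Markers of other T cells were lower with them in this class: Cd8a was at 108 and 38.4 CPM, Cd8b1 at 143 and 51.7 CPM, and the 3 measured markers of gamma delta T cells summed to 47.3 and 0.643 CPM, led in the untreated library by Trdc at 43.3 CPM. Their part in the lower Gzmb, Lag3 and Ifng levels was not tested. In Foxp3=0 CD4 cells the rule called 24.4% of all genes higher and 19.7% lower, and in Foxp3=0 CD8 cells 30.7% and 15.8%. Of 11 interleukin-2 and STAT5 genes, 7 were higher and 1 lower in each, medians 0.88 and 0.67. Transcription factors were 13 higher and 1 lower of 19 in CD4, and 10 and 2 of 16 in CD8 cells. Receptors were 7 and 1 of 14, and 6 and 4 of 13. Suppressor effectors were 1 and 1 of 6, and 3 and 1 of 6.

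Genes most like Foxp3 were ranked among 4799 by how far they were higher in Foxp3-positive than in Foxp3=0 CD4 cells in both libraries, using the smaller lower interval bound. Cd8b1 and Cd8a stood first because the comparison class has none by definition. After them came Klrg1, Gzmb, Ikzf2, Pclaf, Il2ra, Sv2c, Neb and Rapsn. Gzmb was 10.9-fold higher untreated and 5.20-fold treated, the cell cycle gene Pclaf 4.25-fold and 6.95-fold. Sv2c, a synaptic vesicle protein, was 4.46-fold and 5.14-fold higher, and the muscle genes Neb and Rapsn 4.88-fold and 6.11-fold, and 4.56-fold and 8.85-fold. Of the other genes Lrrc32 ranked 21, Capg 38, Izumo1r 101, Penk 287, Il1rl1 4219 and Areg 4265. Foxp3-positive cells were not limited by coreceptor: 9.81% untreated and 5.95% treated held Cd8 without Cd4 UMIs, and 19.6% and 12.6% held both. Median depths were 7169 and 5923.5 UMIs in Foxp3-positive cells, against 4255 and 4423.5 UMIs in Foxp3=0 CD4 cells. The part of cells with Cd8 UMIs and of depth in these ranks, those of Gzmb and Pclaf among them, was not tested.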

How the data were processed

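The authors deposited 1 matrix of both libraries, in natural log units: each cell was scaled to a total of 10000, and 1 was added before the logarithm. It was made with Cell Ranger and Seurat per the submitters' processing notes, which give no versions. The build they name, GRCh38, is human while gene symbols follow mouse usage, and coordinates come only from RefSeq. UMIs were recovered from the deposited natural log values (38204229 of 38204229 nonzero values whole within 0.01) and summed, a departure from a design that allowed for counts. Cells were assigned to libraries by the suffix of their names, which match the sample numbers and cell numbers (9312 and 8078) of the labels. Cells with over 10% mitochondrial UMIs (216 and 358) and the 5% with the highest Scrublet scores (425 and 365) were left out, since the automatic threshold marked 0.033% and 0.013%. A call needed 20 CPM in 1 library, UMIs in both, a 1.5-fold difference and an exact conditional binomial interval that excludes 1. Shares have Clopper-Pearson intervals. Detection was compared after thinning to 2000 UMIs. The ratio step was tested on simulated counts. The 9 genes and the lists were chosen with earlier results of these data known. The text names the 9 genes, the class-setting genes, Il2ra, Ctla4, Gata3, the 10 genes most like Foxp3 and the 2 highest and 2 lowest of each list; Il13, Hdc and the splits by Il1rl1 and Ikzf2 were added after values were seen. One further list and one further split are not reported here. Python 3.11.15, scipy 1.17.1 and scanpy 1.11.5 were used.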

Additional observations from a re-analysis of the deposited data

Results flagged for a closer look

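Lrrc32 pointed in different directions in different classes, a difference that was not tested: its log2 treated over untreated ratio was 1.44 in Foxp3-positive and 1.74 in Foxp3=0 CD4 cells and -0.83 in Foxp3=0 CD8 cells, where it was at 1.90 and 1.07 CPM. Penk likewise was at 0.17 in Foxp3-positive cells and -1.68 in Foxp3=0 CD8 cells, not tested. The sign in Foxp3-positive cells was not stable, since the alternative settings gave -0.10 to 0.28 there.

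Cells without a T cell UMI, set beside the T cell classes above, held some of the genes at a higher level in the treated than in the untreated library. Ikzf2 was at 16.9 CPM treated and 12.2 untreated, Lrrc32 at 1.41 and 0.272 (7 and 3 UMIs), Il1rl1 at 9.27 and 3.98, and Klrg1 at 7.05 and 3.98 CPM. Penk had 5 UMIs treated (1.01 CPM) and 0 untreated, and Capg was at 276 and 254 CPM. Areg went the other way, at 9.87 CPM treated and 23.0 CPM untreated, a ratio of 0.429 (0.310 to 0.585). A single untreated cell held 110 of its 254 UMIs there.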

How the results depend on the processing

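Of 132 recomputed counts and shares 106 stayed within the main interval or within 1.5 times the main count, and 26 did not. The Foxp3-positive share of T cells was 11.9% untreated with a 5% mitochondrial filter, 6.23% and 5.18% with 2 Foxp3 UMIs required, 8.63% untreated without cells with markers of other types, 4.97% and 4.61% after thinning to 2000 UMIs, and 4.29% and 4.64% for cells with Cd4 and without Cd8 UMIs. In Foxp3-positive cells 2 genes were higher and 1 lower without cells with markers of other types and with the mean over cells, 2 and 2 after thinning, and 1 was lower in cells with Cd4 alone. In Foxp3=0 CD4 cells 2 genes were lower without cells with markers of other types, and 1 was lower with a 5% mitochondrial filter, without doublet removal, with the mean over cells and after thinning. In Foxp3=0 CD8 cells 0 genes were higher with a 5% mitochondrial filter and 2 with a minimum of 5 CPM. There 1 was lower with a minimum of 100 CPM and without cells with markers of other types, and 0 were lower with the mean over cells and after thinning. The cause of these changes was not tested. Among single genes 223 of 300 ratios stayed within the main interval and no called ratio reversed. The alternative without shared barcodes was chosen after seeing the data and left the counts between libraries as they were in Foxp3-positive cells, while 5 in place of 6 genes were higher in untreated Foxp3-positive than Foxp3=0 CD4 cells. No paired analysis was possible because each group has 1 library.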
